A study of Mus musculus with 32 samples.

Results

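The Hox genes of the mouse were followed across femoral head chondrocytes of 2 strains. The members were chosen by gene symbol alone (Hoxa, Hoxb, Hoxc or Hoxd followed by a number, with antisense and opposite-strand names left out), and 39 of the 41388 genes in the deposited count tables met that rule. Of these, 11 belonged to the Hoxa cluster on chromosome 6, 10 to Hoxb on chromosome 11, 9 to Hoxc on chromosome 15 and 9 to Hoxd on chromosome 2.

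The study compared LG/J with SM/J, inbred strains that differ in how well articular cartilage and ear wounds heal, with LG/J the better healer. Primary chondrocytes were isolated from the femoral head. All mice were 21 days old, and the cells of every group were grown in serum-containing medium for 4 days, were never passaged, and were sequenced as SMARTer libraries from total RNA. Females and males of each strain made 4 groups of 8 libraries, with no gene alteration or treatment named for any of them. The labels do not say which libraries are separate animals or separate cultures, so the p-values below measure the spread between libraries, which may be technical.

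Hox genes encode homeodomain transcription factors that give cells their position along the head-to-tail axis of the embryo and along the axis of the limb. They sit in 4 clusters that arose by duplication, and genes at matching places in the clusters form paralog groups. Genes at the 3′ end of a cluster (low numbers) act towards the head and genes at the 5′ end (high numbers) act towards the tail and in the limbs, where group 10 genes pattern the thigh, group 11 the lower leg and group 13 the foot. Many adult mesenchymal cells keep part of the Hox pattern of the place they came from.

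Promoter sequences are shown for Hoxd10, the member with the smallest p between the strains, and for its neighbours on the same strand, Hoxd9 and Hoxd8, which were not called. They are those of the reference genome, and sequence was not compared between LG/J and SM/J. Each run below holds 250 bases before and 50 bases from the RefSeq start site on, in GRCm38.p6, 5′ to 3′ on the plus strand, with matches to CCAAT (either strand) in capitals. The Hoxd10 window lies at chr2:74691641-74691940, the Hoxd9 window at chr2:74697513-74697812 and the Hoxd8 window at chr2:74704365-74704664. The gene start in the deposited tables is 74691924 for Hoxd10, 74697727 for Hoxd9 and 74704615 for Hoxd8.
Hoxd10: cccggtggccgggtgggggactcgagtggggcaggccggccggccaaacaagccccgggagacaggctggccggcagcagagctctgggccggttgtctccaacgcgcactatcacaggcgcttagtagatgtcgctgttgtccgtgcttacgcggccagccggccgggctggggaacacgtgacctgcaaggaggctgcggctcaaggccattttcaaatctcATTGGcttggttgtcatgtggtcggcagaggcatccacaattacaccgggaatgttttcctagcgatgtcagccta
Hoxd9: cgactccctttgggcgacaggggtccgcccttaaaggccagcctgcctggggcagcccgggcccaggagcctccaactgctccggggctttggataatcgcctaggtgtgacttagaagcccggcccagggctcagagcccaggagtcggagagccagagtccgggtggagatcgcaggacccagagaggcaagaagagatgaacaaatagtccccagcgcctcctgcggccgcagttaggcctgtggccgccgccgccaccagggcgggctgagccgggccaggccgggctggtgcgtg
Hoxd8: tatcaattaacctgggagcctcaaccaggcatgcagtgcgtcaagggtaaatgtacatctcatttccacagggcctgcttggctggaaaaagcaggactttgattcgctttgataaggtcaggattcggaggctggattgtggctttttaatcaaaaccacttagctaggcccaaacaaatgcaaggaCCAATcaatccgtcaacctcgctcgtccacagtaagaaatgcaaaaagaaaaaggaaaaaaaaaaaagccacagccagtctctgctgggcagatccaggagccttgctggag

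Hoxd10 held 1 CCAAT match, starting 26 bases before the RefSeq start on the opposite strand, Hoxd8 held 1 match starting 62 bases before it, and Hoxd9 held none. GC made up 62.7% of the Hoxd10 window, 68.3% of the Hoxd9 window and 46.7% of the Hoxd8 window. RefSeq promoter windows were at hand for 22 of the 39 Hox genes, and 15 of the 22 held CCAAT in at least 1 window, beside 37.4% of the 32851 promoter windows of all genes. TATAAA was found for 4 of the 22 genes (13.6% of all windows), the Hox-Pbx composite motif TGATTNAT for 2 (3.22%) and the Meis motif TGACAG for 2 (19.2%). Both strands were searched, none of the 4 motifs contains another, and a match is only a description of the letters. None of TATAAA, TGATTNAT and TGACAG was found in the windows of Hoxd10, Hoxd9 or Hoxd8. Of the called genes below, Hoxc8, Hoxc10 and Hoxc13 are named without a window.

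The clusters also carry microRNA genes of the miR-10 and miR-196 families, which are known to repress Hox transcripts. They are shown because Hoxc8, one of the called genes below, is a classic target of miR-196. Whether microRNAs have a part in any strain difference was not tested. The seeds (bases 2 to 8) are in capitals, and each family shares 1 seed.
mmu-miR-10a-5p: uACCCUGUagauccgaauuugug
mmu-miR-10b-5p: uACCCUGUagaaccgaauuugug
mmu-miR-196a-5p: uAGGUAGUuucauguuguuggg
mmu-miR-196b-5p: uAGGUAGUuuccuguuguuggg

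The 7 bases that pair with the miR-196 seed were found in the longest annotated 3′ UTR of 9 of the 39 Hox genes (23.1%), beside 6.81% of 21102 protein-coding genes. Among them were Hoxa4, Hoxa5, Hoxa7, Hoxa9, Hoxb1, Hoxb6, Hoxb7 and Hoxc8. Hoxa7 held 4 sites and Hoxc8 held 2, of which the first of each, with its flanks, is shown here with the paired bases in capitals.
Hoxa7 site: gccaaaatACTACCTagcacagg
Hoxc8 site: caactctaACTACCTgtcagata

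Sites for the miR-10 seed were found in 10.3% of the Hox genes, Hoxa3, Hoxb3 and Hoxd1 among them, beside 12.9% of all genes. Hoxd10 had no 7-base match for either seed in its 3′ UTR. The libraries did not measure mature microRNAs: over all 32 libraries, 41 reads fell on Mir10b, 2 on Mir10a, 12 on Mir196a-2, 1 on Mir196a-1 and 0 on Mir196b.

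Total counts per library ranged from 15840330 to 25571598, and Hox genes took between 0.0231% and 0.0336% of them. All 10 chondrocyte marker genes were detected in every library, with a summed level of 1683 to 32750 CPM (counts scaled to library size) in LG/J libraries and 8707 to 22532 in SM/J libraries. The LG/J female and LG/J male libraries numbered 1 stood apart from the rest of their groups, 6 libraries, called mixed-sex libraries here, held transcripts of both sexes (Xist and Ddx3y each at 5 CPM or more), and 6 pairs of libraries within a group were closer to each other than the remaining pairs. Where the call of a Hox gene between strains ended without these libraries, or with the close pairs summed into 1 library each, its value there stands beside it.

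Hindlimb identity genes were present at low levels and the forelimb gene was lower still. Tbx4, the T-box gene of the hindlimb, averaged 4.32 ± 1.97 CPM (SD, n = 16) in LG/J and 2.64 ± 0.88 in SM/J libraries, Pitx1, which specifies the hindlimb, 1.25 ± 0.67 and 1.61 ± 0.46, and Isl1, which starts the hindlimb bud, 1.09 ± 0.68 and 1.15 ± 0.67. Tbx5, the forelimb counterpart of Tbx4, averaged 0.407 ± 0.287 and 0.0948 ± 0.122 CPM and did not pass the filter on low counts. In all 4 alternative fits that tested Tbx5 it was called as higher in LG/J. Its log2 fold changes there ran from 1.56 to 1.97 (edgeR adjusted p from 0.00308 to 0.0336). Where those fits used the filter, Tbx5 passed through the LG/J libraries, where it is higher. Its calls there are therefore not independent support for a strain difference.

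Femoral head chondrocytes expressed a Hox set centred on paralog group 10 and on the Hoxc and Hoxa clusters. Levels between genes were compared as RPKM, reads scaled by gene length and by library size, the latter adjusted with TMM, the trimmed mean of M values that edgeR uses to align libraries. The 3 group 10 genes summed to 74.5 ± 9.35 RPKM (SD, n = 32), which was 65.3% of all Hox RPKM. Groups 6 to 10 held 93.9% of the Hox RPKM, groups 1 to 5 held 4.79% and groups 11 to 13 held 1.29%. By cluster, Hoxc made up 54.5% (62.2 ± 7.20 RPKM), Hoxa 32.6% (37.2 ± 4.02), Hoxd 11.7% (13.3 ± 3.95) and Hoxb 1.23% (1.40 ± 0.45).

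**Figure D1:**
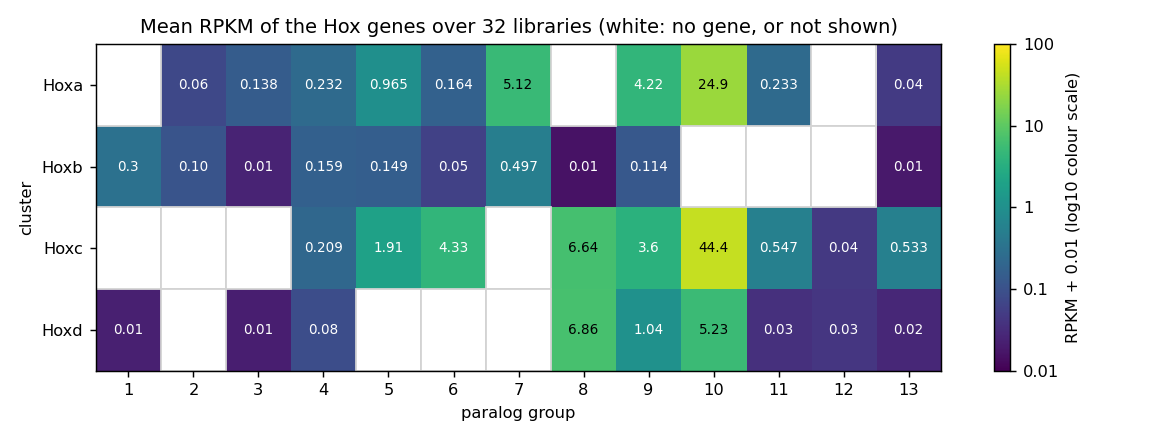
Mean level of the Hox genes over 32 libraries, in RPKM, arranged by cluster (rows) and paralog group (columns), on a log10 colour scale after adding 0.01, with white where there is no gene or none is shown. The 9 cells at 3.60 or more are Hoxa7, Hoxa9, Hoxa10, Hoxc6, Hoxc8, Hoxc9, Hoxc10, Hoxd8 and Hoxd10, with Hoxc10 (44.4) and Hoxa10 (24.9) highest, while no Hoxb gene passes 0.497.

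Hoxc10 led with 44.4 ± 5.93 RPKM (range 36.6 to 58.0), above 91.1% of the 16136 genes that passed the filter. Hoxa10 followed with 24.9 ± 3.69 RPKM (17.1 to 31.4), and the ranges of both did not overlap: Hoxc10 was above Hoxa10 in 32 of 32 libraries, and Hoxa10 above the next gene in 32 of 32. Hoxc10 and Hoxa10 are group 10 genes with roles in the lumbosacral skeleton and the thigh. Together they carried 60.7% of the Hox RPKM.

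A second tier of 7 genes had means between 3.60 and 6.86 RPKM and could not be ranked beyond its spread. It ran from Hoxd8 (6.86 ± 1.97) and Hoxc8 (6.64 ± 1.06) through Hoxd10 (5.23 ± 2.52), Hoxa7 (5.13 ± 0.71), Hoxc6 (4.33 ± 1.72) and Hoxa9 (4.22 ± 0.59) to Hoxc9 (3.60 ± 0.79). Neighbours in this order swapped places in many libraries: Hoxd8 was above Hoxc8 in 19 of 32 and Hoxc8 above Hoxd10 in 17 of 32. Genes of groups 6 to 9 pattern the trunk, and those of groups 9 and 10 also the upper limb segment. Hoxc9 was above Hoxc5 (1.91 ± 0.47 RPKM) in 32 of 32 libraries, although the ranges over all libraries overlapped. Hoxd9 (1.05 ± 0.36) and Hoxa5 (0.965 ± 0.268) were also near 1 RPKM.

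**Figure D2:**
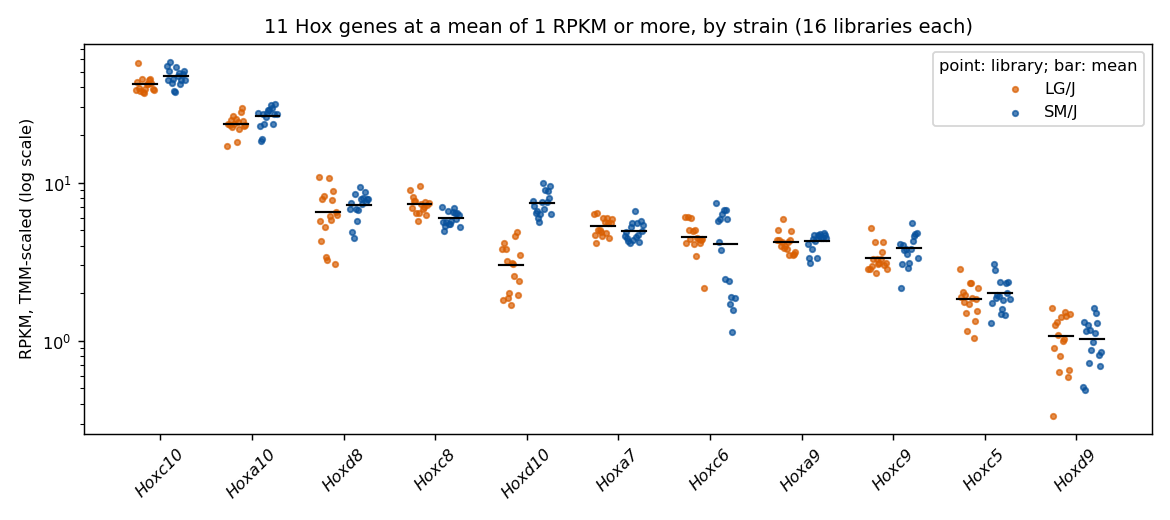
Level of 11 Hox genes with a mean of 1 RPKM or more, on a log axis, with 16 LG/J (orange) and 16 SM/J (blue) libraries as points and the strain mean as a bar. Hoxc10 and Hoxa10 stand clear of the rest, and Hoxd10 is the member whose strain clouds separate.

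Genes that pattern the lower leg and foot were low. Groups 11 to 13 have 9 members, of which 3 passed the filter: Hoxc11 (0.547 ± 0.226 RPKM), Hoxc13 (0.533 ± 0.575) and Hoxa11 (0.233 ± 0.184). Hoxa11 shares 800 of its 2287 exon bases with Hoxa11os on the opposite strand, and the strand setting of the counting is not given in the sources used here, so reads of the pair cannot be told apart. Hoxa13, Hoxd11, Hoxd12, Hoxd13, Hoxc12 and Hoxb13 each averaged 0.0382 RPKM or less.

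The Hoxb cluster was nearly silent along its length. Hoxb7 (0.497 ± 0.253 RPKM) and Hoxb1 (0.300 ± 0.196) were its highest members, and only those 2, Hoxb4 and Hoxb5 passed the filter. By contrast 8 of 9 Hoxc genes, 8 of 11 Hoxa genes and 3 of 9 Hoxd genes did. In all, 23 members passed and 16 did not, and the 16 held 1161 of 198299 Hox reads, with no mean above 0.341 CPM. No member was at 0 reads in every library. The median level of the 23 was 1.05 RPKM, beside 2.42 RPKM for all 16136 genes that passed. In bulk RNA a low level can mean few cells or little RNA per cell, and these cannot be told apart.

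Between strains, 4 of the 23 Hox genes tested were called: Hoxc8 was higher in LG/J, and Hoxd10, Hoxc10 and Hoxc13 were lower. The test was edgeR's quasi-likelihood test over both sexes, with Benjamini-Hochberg adjustment over 16136 genes and a threshold of 0.05. The background was high: 29.9% of all genes tested were called, 16.4% as higher and 13.5% as lower in LG/J, so 4 of 23 is not more than the share among all genes. The median log2 fold change (LG/J over SM/J) was -0.12 for the Hox genes and 0.02 for all genes, and the median size, sign ignored, was 0.21 for both. Of the 19 not called, 8 had a fitted value above 0 and 11 below. Summed Hox RPKM was 108.0 ± 8.69 (n = 16) in LG/J and 120.1 ± 9.03 in SM/J libraries, with ranges of 94.6 to 125.2 and 105.8 to 135.0 that overlapped.

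**Figure D3:**
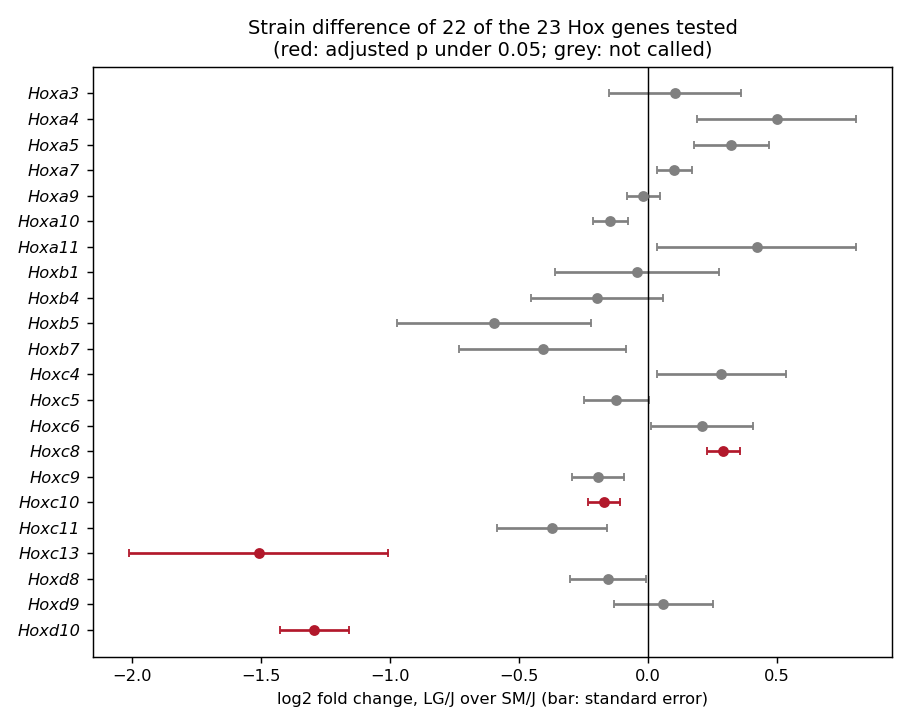
Log2 fold change of LG/J over SM/J with its standard error for 22 of the 23 Hox genes tested, in cluster order, with called genes (adjusted p under 0.05) in red. Hoxd10 (-1.29) and Hoxc13 (-1.51) lie farthest from 0, but the bar of Hoxc13 is much wider (SE 0.50 against 0.13).

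Hoxd10 (ENSMUSG00000050368, chr2:74691924-74695105, plus strand) was the only Hox gene whose strains did not overlap. It encodes a group 10 factor that patterns the thigh and hindlimb motor neurons. In LG/J libraries it ran from 3.04 to 8.83 CPM with a median of 5.57, and in SM/J libraries from 10.3 to 17.9 CPM with a median of 13.3. Every SM/J library was thus above every LG/J library, a separation that 2.62% of all genes tested showed. LG/J libraries averaged 5.49 ± 1.88 CPM (SD, n = 16), against 13.5 ± 2.31 CPM for the SM/J libraries, a log2 fold change of -1.29 (SE 0.13), or 2.45-fold higher in SM/J, with an edgeR adjusted p of 2.41e-09.

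Both sexes showed the difference. LG/J females ran from 3.04 to 7.58 CPM (median 4.73) and SM/J females from 10.3 to 13.9 (median 11.8), a log2 fold change of -1.25 (SE 0.19, edgeR adjusted p = 7.95e-06). LG/J males ran from 3.56 to 8.83 CPM (median 5.57) and SM/J males from 11.5 to 17.9 (median 15.3), a log2 fold change of -1.34 (SE 0.19, edgeR adjusted p = 2.06e-06). The strain difference did not differ detectably between the sexes (interaction 0.08, SE 0.26, edgeR adjusted p = 0.983). The gene was called in all 44 alternative fits, with log2 fold changes between -1.38 and -1.26. The authors' gene model of Hoxd10 shares 104 of 1816 exon bases with Gm28309, which had 0 reads.

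The adjacent Hoxd genes were not called. Hoxd9 had a median of 2.26 CPM in LG/J (0.718 to 3.45) and 2.26 in SM/J (1.05 to 3.43), with a log2 fold change of 0.06 (SE 0.19, edgeR adjusted p = 0.852). Hoxd8 had a median of 17.01 CPM in LG/J (8.34 to 29.7) and 20.4 in SM/J (12.3 to 25.9), with a log2 fold change of -0.15 (SE 0.15, edgeR adjusted p = 0.476). In both, the strains overlapped over most of their range. Per length, Hoxd10 was a median of 0.487 times Hoxd8 in LG/J libraries (0.291 to 0.979) and 1.06 times in SM/J libraries (0.703 to 1.48). Relative to Hoxd9 it was 3.02 times in LG/J (1.71 to 5.41) and 7.65 times in SM/J (4.25 to 14.98).

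**Figure D4:**
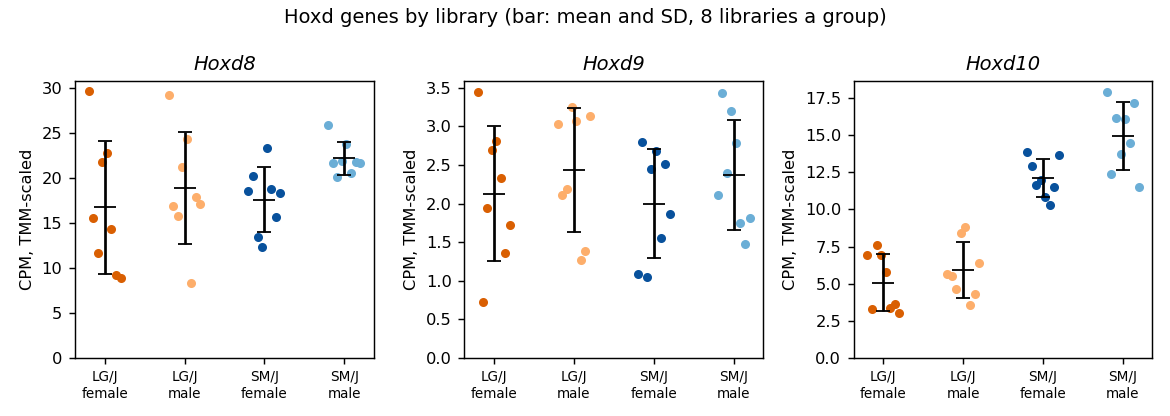
CPM of Hoxd8, Hoxd9 and Hoxd10 in each library by strain and sex, with the mean and SD of 8 libraries per group. Hoxd10 separates SM/J (10.3 to 17.9) from LG/J (3.04 to 8.83) in both sexes, while Hoxd8 and Hoxd9 overlap, and the highest LG/J points of Hoxd8 are the 2 libraries numbered 1.

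Within paralog group 10, the share of Hoxd10 was larger in every SM/J library than in any LG/J library. Hoxd10 supplied 4.40% ± 1.35 of the group's RPKM in LG/J (2.54 to 6.39) and 9.22% ± 1.16 in SM/J (7.69 to 11.6). Hoxc10 supplied 61.1% ± 3.07 and 58.3% ± 4.71, and Hoxa10 34.5% ± 3.27 and 32.5% ± 4.31. The order Hoxc10, Hoxa10, Hoxd10 was the same in both strains.

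Genes flanking the Hoxd cluster gave mixed values. Lnpk, beside the 5′ end of the cluster, had a log2 fold change of 0.00 (SE 0.07, edgeR adjusted p = 0.974), and Mtx2, beside the 3′ end, -0.30 (SE 0.13, edgeR adjusted p = 0.0928). Of 3 flanking genes tested 1 was lower in LG/J, beside 13.5% of all genes called lower and 29.9% in either direction. That gene was Atp5g3 (-0.23, SE 0.07), a subunit gene of the mitochondrial ATP synthase. It was no longer called with the close pairs summed (-0.19, edgeR adjusted p = 0.0767) or without the mixed-sex libraries (-0.20, adjusted p = 0.0542).

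Hoxc8 (ENSMUSG00000001657, chr15:102990607-102994111, plus strand), a trunk gene of the thoracic region that delays cartilage maturation when overexpressed, was higher in LG/J. It ran from 16.1 to 26.8 CPM with a median of 20.7 in LG/J libraries and from 14.1 to 19.9 with a median of 16.4 in SM/J libraries. The 2 highest LG/J values, 25.3 and 26.8 CPM, belonged to the 2 libraries numbered 1, and the strains overlapped between 16.1 and 19.9. The log2 fold change was 0.29 (SE 0.06, edgeR adjusted p = 6.80e-04), a 1.23-fold difference. Without those 2 libraries it was 0.24 (edgeR adjusted p = 0.00169), and the gene was called in all 44 alternative fits over both sexes. In females the log2 fold change was 0.33 (SE 0.09, adjusted p = 0.0134) and in males 0.26 (SE 0.09, adjusted p = 0.0367). In females the call was made in 39 of 44 alternative fits and was lost without the mixed-sex libraries (0.24, adjusted p = 0.196), with the close pairs summed (0.31, adjusted p = 0.0576), without the filter (adjusted p = 0.0584), by limma voom (adjusted p = 0.0957) and with close libraries summed up to a wider limit (adjusted p = 0.0905). In males it was made in 33 of 44 and was lost without the LG/J libraries numbered 1 (0.20, adjusted p = 0.0705), with the close pairs summed (0.28, adjusted p = 0.0694), without the filter (adjusted p = 0.0953), with upper-quartile factors (adjusted p = 0.0578) and at the wider limit (adjusted p = 0.160). It was also lost in males when any of 6 male libraries was left out, LG/J number 1 or 5 or SM/J number 1, 5, 7 or 8, with adjusted p from 0.0523 to 0.0968.

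Hoxc10 (ENSMUSG00000022484, chr15:102966796-102971893, plus strand), the most abundant member, was slightly lower in LG/J. It ran from 69.8 to 109.0 CPM with a median of 77.6 in LG/J libraries and from 71.4 to 110.8 with a median of 88.1 in SM/J libraries. The strains overlapped over nearly the whole range. The log2 fold change was -0.17 (SE 0.06, edgeR adjusted p = 0.0405), a 1.12-fold difference, and neither sex alone gave a call (females -0.14, adjusted p = 0.344; males -0.20, adjusted p = 0.117). The call was made in 23 of 44 alternative fits and was lost without the 6 mixed-sex libraries (-0.11, adjusted p = 0.287), after summing the close pairs (-0.14, adjusted p = 0.185) or with the LG/J libraries numbered 1 taken out (-0.15, adjusted p = 0.0709). Leaving out a single library ended the call in 15 of 32 cases (adjusted p from 0.0539 to 0.0727). Of LG/J these were females 1, 4, 5, 7 and 8 with males 1, 7 and 8. Of SM/J they were females 1, 3 and 4 with males 1, 3, 6 and 7. The authors' gene model of Hoxc5 (chr15:102967443-103017429) starts within Hoxc10 and shares 166 exon bases with it on the same strand.

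Hoxa10, the second group 10 gene, had a value close to that of Hoxc10 but was not called. It ran from 56.0 to 96.4 CPM (median 76.8) in LG/J libraries and from 60.1 to 102.5 (median 88.9) in SM/J libraries. Its log2 fold change was -0.15 (SE 0.07, edgeR adjusted p = 0.112). The lowest LG/J values, 56.0 and 59.3 CPM, were again those of the 2 libraries numbered 1.

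Hoxc13 (ENSMUSG00000001655, chr15:102921103-102928814, plus strand), a group 13 gene known for its role in hair follicles and nails, was lower in LG/J at a low level. It ran from 0 to 2.02 CPM with a median of 0.402 in LG/J libraries and from 0.106 to 5.16 with a median of 1.38 in SM/J libraries. The spread within each strain was wide and the strains overlapped, with single SM/J libraries at 4.43, 4.91 and 5.16 CPM. The log2 fold change was -1.51 (SE 0.50, edgeR adjusted p = 0.0221). In males it was -2.25 (SE 0.74, adjusted p = 0.0265) and in females -0.77 (SE 0.69, adjusted p = 0.547), and the difference between the sexes was not significant (interaction 1.48, SE 1.00, adjusted p = 0.795). Summing the close pairs ended the call over both sexes (-1.08, adjusted p = 0.159), as did leaving out the 6 mixed-sex libraries (-0.96, adjusted p = 0.146). In males it was called in 38 of 44 alternative fits. It was lost there with the close pairs summed (-1.83, adjusted p = 0.124) or up to the wider limit (-1.60, adjusted p = 0.220), without the filter (adjusted p = 0.0617), and without LG/J male 5, SM/J male 6 or SM/J male 7 (adjusted p 0.0508, 0.0515 and 0.0757).

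**Figure D5:**
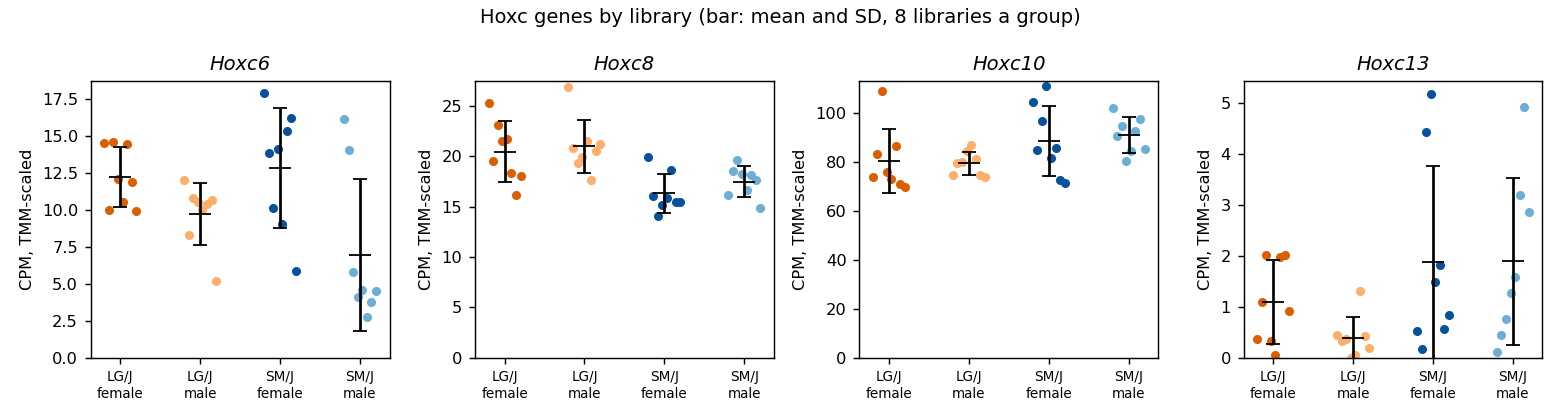
CPM of Hoxc6, Hoxc8, Hoxc10 and Hoxc13 in each library by strain and sex, with the mean and SD of 8 libraries per group (parts of an SD bar below 0 are not drawn). Hoxc8 is shifted up in LG/J, Hoxc10 overlaps almost fully, Hoxc13 is scattered within every group, and Hoxc6 has a low cluster of 6 SM/J males between 2.75 and 5.78 CPM.

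Members with a sizeable fitted value that missed the threshold were all of low level. Hoxb5, which takes part in shoulder positioning, ran from 0 to 1.204 CPM (median 0.283) in LG/J libraries and from 0.179 to 1.21 (median 0.445) in SM/J libraries, with a log2 fold change of -0.60 (SE 0.38, edgeR adjusted p = 0.25). Hoxa4 ran from 0.115 to 0.899 CPM (median 0.356) and from 0.0529 to 0.683 (median 0.273), with a log2 fold change of 0.50 (SE 0.31, edgeR adjusted p = 0.236). Both overlapped between strains. Hoxa5, a gene of the cervical and upper thoracic region, had a log2 fold change of 0.32 (SE 0.15, edgeR adjusted p = 0.0934), and was called when SM/J male 1 was left out (0.37, adjusted p = 0.0484).

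Hoxb9, a thoracic gene of the Hoxb cluster, fell below the filter, yet its values separated partly by strain. It ran from 0 to 0.267 CPM (median 0.0539) in LG/J libraries and from 0.0526 to 1.47 (median 0.390) in SM/J libraries, on 194 reads over all 32 libraries. It was picked out after its values were seen. In the fit without the filter its log2 fold change was -2.15 (edgeR adjusted p = 8.40e-05), and it was called in all 4 alternative fits that tested it. Where those fits used the filter, Hoxb9 could pass only through SM/J libraries, where it is high. Its calls there are therefore not independent support for a strain difference. Gm53, a neighbouring noncoding gene at chr11:96251105-96264868, averaged 0.236 ± 0.158 CPM in LG/J and 0.651 ± 0.324 in SM/J libraries (log2 fold change -1.45, SE 0.36, edgeR adjusted p = 0.00263).

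Other Hox genes tested that are not described above by strain gave small fitted values or rested on few reads. In the Hoxa cluster, Hoxa7, a thoracic gene, averaged 20.0 ± 2.64 CPM in LG/J and 18.6 ± 2.59 in SM/J libraries (log2 fold change 0.10, SE 0.07), and Hoxa9 averaged 23.4 ± 3.61 and 23.7 ± 3.04 (-0.02, SE 0.06). Hoxa3 and Hoxa11 had log2 fold changes of 0.11 (SE 0.26) and 0.42 (SE 0.39). None of these 4 was called, and their strains overlapped.

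In the Hoxc cluster, Hoxc9 averaged 8.13 ± 1.60 CPM in LG/J and 9.35 ± 2.07 in SM/J libraries (-0.19, SE 0.10, edgeR adjusted p = 0.16), and was called when LG/J female 3 was left out (-0.25, adjusted p = 0.0417). Hoxc5 averaged 5.65 ± 1.42 and 6.15 ± 1.49 CPM (-0.12, SE 0.13). Hoxc11, the group 11 gene with the highest level, averaged 0.969 ± 0.469 and 1.24 ± 0.41 CPM (-0.37, SE 0.22), and Hoxc4 had a log2 fold change of 0.29 (SE 0.25). In the Hoxb cluster, Hoxb7 (-0.41, SE 0.32), Hoxb4 (-0.20, SE 0.26) and Hoxb1 (-0.04, SE 0.32) were not called.

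By cluster, Hoxd summed to 10.8 ± 3.54 RPKM in LG/J (5.78 to 16.6) and 15.9 ± 2.37 in SM/J libraries (11.9 to 20.4), or 9.89% and 13.2% of the Hox total. Hoxc summed to 59.9 ± 6.45 and 64.5 ± 7.37 RPKM, Hoxa to 36.2 ± 3.25 and 38.2 ± 4.56, and Hoxb to 1.196 ± 0.397 and 1.60 ± 0.43. All 4 sums overlapped between the strains, and sums over chosen members were not tested.

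Within each sex, fewer Hox genes were called. In females 2 of 23 were called, Hoxd10 and Hoxc8, beside 13.4% of all genes. In males 3 of 23 were called, Hoxd10, Hoxc8 and Hoxc13, beside 22.3% of all genes. Hoxc9 in males (-0.38, edgeR adjusted p = 0.0526) was called in 13 of 44 alternative fits, and Hoxa5 in females (0.58, edgeR adjusted p = 0.0590) in 5. In males Hoxa10 (-0.25, edgeR adjusted p = 0.0625) and Hoxa9 (-0.23, edgeR adjusted p = 0.0677) were each called in 5 of 44 as well. Whether any Hox gene differed in its strain response between the sexes was tested directly, and 0 were called by edgeR (0.0062% of all genes), with 1 at an unadjusted p under 0.05, Hoxa9, and 0 called by DESeq2 and by limma voom. Hoxa9 had a log2 fold change of 0.20 in females and -0.23 in males (interaction 0.43, SE 0.13, edgeR adjusted p = 0.269).

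Between the sexes over both strains 0 Hox genes were called by edgeR (3.46% of all genes), with 2 at an unadjusted p under 0.05, Hoxc6 and Hoxa10, and 1 called by DESeq2 and by limma voom, Hoxc6. Hoxc6, a gene of the thoracic trunk, ran from 9.92 to 14.6 CPM (median 11.95) in LG/J females and from 5.20 to 11.99 (median 10.5) in LG/J males. In SM/J it ran from 5.88 to 17.9 CPM (median 13.97) in females and from 2.75 to 16.1 (median 4.53) in males. SM/J males 1 and 2 held 16.1 and 14.1 CPM, and the other 6 held 5.78 or less. The log2 fold change of males over females was -0.61 (SE 0.20, edgeR adjusted p = 0.081), and it was called when SM/J male 1 (-0.76, adjusted p = 0.0101), SM/J male 2 (-0.72, adjusted p = 0.0202) or SM/J female 8 (-0.66, adjusted p = 0.0447) was left out. Between strains its log2 fold change was 0.21 (SE 0.20, edgeR adjusted p = 0.464). SM/J males 2 and 3 are among the 6 mixed-sex libraries, and SM/J male 3 held 5.78 CPM of Hoxc6. SM/J male 1 is not a mixed-sex library.

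Partners of Hox proteins were expressed in both strains. Of 9 cofactor genes tested (Pbx, Meis and Pknox families, which bind DNA together with Hox proteins) 1 was higher in LG/J and 0 lower, beside 16.4% and 13.5% of all genes. That gene was Meis2, at 26.6 ± 7.33 CPM in LG/J and 18.7 ± 3.58 in SM/J libraries (log2 fold change 0.51, SE 0.12, edgeR adjusted p = 0.0013). The others, including Meis1 at 62.4 ± 27.2 and 54.3 ± 12.4 CPM, were not called.

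Limb patterning genes moved both ways. Of 22 tested, 3 were higher and 5 lower in LG/J, 8 of 22 beside 29.9% of all genes in either direction. The 5 with the smallest p were Shox2, a regulator of proximal limb growth (log2 fold change 1.09, SE 0.12), Sall1 (-2.15, SE 0.43), Tbx15, which shapes the limb skeleton (-0.33, SE 0.07), Dlx5, an activator of chondrocyte maturation (-0.58, SE 0.14), and Sall3 (-0.99, SE 0.26). Tbx4 was higher in LG/J by 0.71 (SE 0.20, edgeR adjusted p = 0.00588), whereas Pitx1 (-0.34, SE 0.22, adjusted p = 0.247) and Isl1 (-0.06, SE 0.32, adjusted p = 0.910) were not called.

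Chromatin regulators of the Hox clusters included several genes higher in LG/J. Of 27 Polycomb genes, whose complexes keep Hox genes silent, 8 were higher and 2 lower, beside 16.4% and 13.5% of all genes, with a median log2 fold change of 0.08 beside 0.02 for all genes. The 5 with the smallest p were Jarid2 (0.97, SE 0.10), Rnf2 (0.59, SE 0.06), Aebp2 (0.54, SE 0.08), Phf1 (1.11, SE 0.16) and Ezh1 (0.35, SE 0.08). Of 14 Trithorax and histone H3 lysine 27 demethylase genes, which keep Hox genes active, 5 were higher and 0 lower (median 0.15). Neither list was tested against the other genes. Kdm6b, which removes the Polycomb mark, was at 73.2 ± 13.8 CPM in LG/J and 25.1 ± 6.12 in SM/J libraries without overlap (log2 fold change 1.55, SE 0.12). Kmt2c (0.38, SE 0.10), Ash1l (0.22, SE 0.06), Kmt2d (0.23, SE 0.07) and Kdm6a (0.30, SE 0.10) were the other 4. Of the 5, Kmt2c, Kmt2d and Kdm6a were no longer called with the close pairs summed (edgeR adjusted p 0.0558, 0.0661 and 0.13).

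Retinoic acid genes, whose signal switches on 3′ Hox genes in the embryo, gave 0 higher and 3 lower of 12 tested, beside 29.9% of all genes called in either direction. Dhrs3, a retinaldehyde reductase, was at 692.8 ± 112.3 CPM in LG/J and 1120 ± 276 in SM/J libraries (log2 fold change -0.68, SE 0.09). Crabp2, a retinoid-binding protein (-1.22, SE 0.30), was low in both strains and was no longer called without the 6 mixed-sex libraries (edgeR adjusted p = 0.0591). The listed noncoding genes of the clusters gave 0 calls of 6 tested, beside the same 29.9%. Gm53, the noncoding gene called as lower in LG/J above, lies within the Hoxb cluster but was not on that list. Hotair, from the Hoxc cluster, averaged 1.09 ± 0.53 CPM in LG/J and 0.845 ± 0.399 in SM/J libraries. Hotairm1, at the 3′ end of Hoxa, had a log2 fold change of 0.49 (SE 0.20, edgeR adjusted p = 0.0661), and was called without the mixed-sex libraries (0.74, adjusted p = 0.0170).

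Some markers of cell types also differed between the strains, with 29.9% of all genes called as the background for each list. Of 10 chondrocyte markers 3 were higher in LG/J (Acan, Sox9 and Hapln1) and 0 lower. Of 8 fibroblast markers 1 was higher (Thy1) and 3 lower (Dpt, Acta2 and Postn), with a summed level of 356.1 to 3910 CPM in LG/J and 993.7 to 5297 in SM/J libraries. Of 7 macrophage markers tested 1 was lower (Lyz2), with a summed level of 31.2 to 1595 and 88.6 to 1139 CPM. Of 6 osteoblast markers 1 was higher (Phex, 143.8 to 2056 and 338.6 to 1942 CPM summed), and of 5 synovial markers 2 were higher (Prg4 and Cd55, 113.9 to 6026 and 244.7 to 871.8 CPM summed). Median sums in LG/J and SM/J were 23842 and 16509 CPM for chondrocyte, 1386 and 2075 for fibroblast and 72.2 and 308.0 for macrophage markers. For osteoblast markers they were 463.2 and 645.3 CPM, and for synovial markers 910.6 and 366.5. The median log2 fold change of the 7 macrophage markers tested was -1.41. Acan was called in only 16 and Phex in 27 of 44 alternative fits. Without the mixed-sex libraries Acan, Sox9, Hapln1, Postn and Phex were not called (edgeR adjusted p 0.222, 0.145, 0.0853, 0.178 and 0.138), nor were they with the close pairs summed (0.198, 0.105, 0.0512, 0.147 and 0.155). Of the haematopoietic, endothelial and muscle markers tested, 0 of 4, 0 of 4 and 0 of 2 were called. The 8 haematopoietic markers summed to 2.25 to 38.6 CPM in LG/J and 4.60 to 55.5 in SM/J libraries. The haemoglobin gene Hbb-bs held no more than 2 reads in any library. Hba-a1, the other haemoglobin gene listed, also fell below the filter. In the fit without the filter Hba-a1 was called as lower in LG/J (log2 fold change -3.54, edgeR adjusted p = 3.05e-05). The 6 muscle markers summed to 1.39 to 13.8 and 2.21 to 16.99 CPM, with the muscle regulators Myod1 and Myog at no more than 2 and 4 reads in any library. The 6 endothelial markers summed to 1.63 to 10.1 and 1.48 to 9.68 CPM. The part of these cell types in the Hox differences was not tested. With the LG/J libraries numbered 1 taken out, Hoxd10 had a log2 fold change of -1.33 (edgeR adjusted p = 3.82e-09).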

How the data were processed

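Each of the 32 libraries came with a table of read counts per gene, deposited by the authors with CPM and RPKM columns and a gene length. Per the submitters' processing notes, reads were aligned with STAR 2.0.4b to GRCm38 and counted with featureCounts 1.45. For the annotation release and strand setting, nothing was given in the sources used here. Deposited CPM and RPKM values matched those recomputed from the deposited counts and lengths. Tests used counts only: edgeR 4.0.16 (R 4.3.3) with filterByExpr (16136 genes), TMM scaling, 1 mean per group of strain and sex, and the robust quasi-likelihood test, adjusted by Benjamini-Hochberg over all genes kept. Levels are TMM-scaled CPM or, between genes, RPKM, with no test of sums. DESeq2 1.42.0 and limma 3.58.1 voom were alternatives. On simulated counts of 16136 genes for the strain contrast the fit recovered 52% of 1.5-fold and 80% of 2-fold changes. Only 100 genes were changed at each fold there, and 134 genes were called, against 4826 in the data. The adjusted threshold is therefore stricter in the simulation, and these shares do not give the sensitivity of the test on the data. Depth ran from 15840330 to 25571598 counts a library.

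The Hox members and the gene lists were chosen with earlier results of these data known. Named were Hox genes called between strains or with a log2 fold change of at least 0.5, and at most 5 called genes of each list by p. Promoters and microRNAs are from RefSeq (GRCm38.p6), and 3′ UTRs are the longest per gene in GENCODE M21. The values of 1 Hox gene and of 1 gene of the retinoic acid list are not reported here, although both stay in the fits and counts. Genes without a symbol held 0.109% of counts.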

Additional observations from a re-analysis of the deposited data

Results flagged for a closer look

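Single libraries stood far from the other 7 of their group in 6 of the 56 gene and group combinations looked at (14 Hox genes in 4 groups), beside about 1 in 20 groups by chance. LG/J female 1 held 56.0 CPM of Hoxa10 while the other 7 lay between 73.4 and 85.6. LG/J male 1 held 26.8 CPM of Hoxc8 while the others lay between 17.7 and 21.5. Both are libraries numbered 1, which stood apart over all genes. LG/J female 3 held 109.0 CPM of Hoxc10, with the others between 69.8 and 86.5. LG/J male 6 held 1.31 CPM of Hoxc13, with the others between 0 and 0.442. For Hoxb5, LG/J female 8 held 1.204 CPM (others 0 to 0.453) and SM/J male 5 held 1.21 CPM (others 0.179 to 0.498). No Hox gene looked at had its strains separated in opposite directions in the 2 sexes.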

How the results depend on the processing

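Over both sexes, 4 Hox genes were called between strains. Of the 44 alternatives 42 gave a count within 1.5 times of it. Limma voom with quality weights gave 8 (2 higher and 6 lower in LG/J, with Hoxc6, Hoxd8, Hoxb5 and Hoxc11 added), and leaving out the 6 mixed-sex libraries gave 2. A like count did not mean the same genes, since Hoxb9 was among those called in the 4 alternatives that tested it. With the close pairs summed the 3 called were Hoxd10, Hoxc8 and Hoxb9, while Hoxc10 and Hoxc13 were lost. In females voom gave 1 in place of 2. In males upper-quartile factors gave 6, DESeq2 gave 5 and voom gave 7 in place of 3, and leaving out 1 library gave from 1 to 4. Between sexes library size scaling, DESeq2, voom and the replicate block each gave 1 (Hoxc6) in place of 0, and leaving out 1 library gave 0 or 1. The number of Hox genes with an interaction stayed at 0 in every alternative. Isl1, never called, had values above 0 in 5 fits without 1 library, and its values without 1 library ran from -0.25 to 0.081. Hoxb5 was called by voom (-0.99, adjusted p = 0.0444). Hoxc10 was also not called by library size scaling (-0.15, adjusted p = 0.121) or without the filter (-0.17, adjusted p = 0.0865), and Tbx4 not after summing close libraries up to a wider limit (0.63, adjusted p = 0.0532). Cluster and group 10 sums moved by less than 1 SD with unique exon lengths or library size scaling. The cause of these changes was not tested.

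Same-numbered libraries of different groups were checked for pairing: 30 of 48 pairs had a correlation over 0.1 (from -0.447 to 0.844), and 7 of 32 libraries correlated best with their own number. Since not every pair passed 0.1, the numbers were not taken as pairing libraries, and whether a number marks a shared batch was not tested. With the replicate block 5286 genes in place of 4826, and 4 Hox genes, were called between strains with the sexes joined, 2 in females and 4 in males. Fits without the libraries numbered 1, without the mixed-sex ones, or with close libraries summed were chosen after seeing the data. Hoxb9 rests on 194 reads over all libraries. Hoxc13, on 920 reads, varied widely between libraries of 1 group.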
